A study of Mus musculus with 12 samples.

Results

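The genes described here are 37 antioxidant genes of mouse macrophages, chosen from a list of symbols that covers glutathione reduction and synthesis, the thioredoxin system, peroxiredoxins, peroxide and superoxide removal, glutathione transfer, NADPH supply and the control of the transcription factor NRF2. The list was made with earlier results of these data known. The study had already named Gsr, Txnrd1, Srxn1, Gclm, Prdx6 and Cat among genes raised in resting macrophages without miR-210. Shares of members beside shares of all genes are therefore descriptions and not independent support. All 37 members matched a single Ensembl gene each among the 56941 genes of the deposited tables. Every member passed the filter on low counts in all comparisons, and the lowest count of any member in any library was 52, for Nqo1.

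Glutathione and thioredoxin are the main small-molecule and protein thiols with which a cell reduces peroxides and oxidised proteins, and both are regenerated with electrons from NADPH by a reductase of their own. NRF2, the product of Nfe2l2, is held in the cytosol and degraded through KEAP1. When KEAP1 is modified by electrophiles or bound by p62, the product of Sqstm1, NRF2 enters the nucleus and binds antioxidant response elements, and many of the genes here are known targets. In macrophages these systems limit damage from the oxidants the cells make themselves, and they are known to be adjusted during activation.

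Monocytes were purified by negative selection from the bone marrow of C57BL/6J wild-type (WT) mice and of mice without the microRNA miR-210 (miR-210 KO), and were grown into macrophages over 7 days with medium conditioned by L929 fibroblasts as a source of M-CSF. The knockout allele came from a cross of floxed miR-210 mice with Gata-1 Cre mice, and WT and KO animals were bred from heterozygotes. Total RNA without ribosomal RNA was sequenced from resting macrophages (M0) and from macrophages kept for 72 hours with 20 ng/mL IL-4 (M2). Per the study's methods, control wells were kept in the same conditions without IL-4. There were 3 libraries for each genotype in each state (WT M0, WT M2, miR-210 KO M0, miR-210 KO M2). The questions were which genes depend on miR-210 in each state, and how IL-4 changes them in each genotype. Nothing in the labels says whether the libraries of a group came from separate mice, so p-values measure the spread between these libraries. Every group carries a different batch label, and effects of batch and of group cannot be told apart.

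The libraries held between 7930525 counts (WT M0 library 1) and 10167695 counts (miR-210 KO M0 library 2). The Mir210 gene itself had 1, 3 and 5 counts in WT M0, 1, 2 and 1 in WT M2 and 0 in all 6 miR-210 KO libraries. Macrophage genes were abundant in all libraries, with Lyz2 at 4697 and the 8 macrophage markers together at 8394 to 10780 CPM in the group means, where CPM is the count scaled to the TMM-normalized library size. The markers Ly6g, Mpo, Elane, Camp, Cd3e, Cd3d, Cd3g, Nkg7, Klrb1c, Cd79a, Ms4a1, Pax5, Flt3, Siglech and Pdgfra, of granulocytes, lymphocytes, dendritic and stromal cells, stayed under 3 counts in every library. Other markers of these classes were detected, and some rose with IL-4. Zbtb46, of dendritic cells, had a mean of 0.221 CPM in WT M0 and 14.9 CPM in WT M2, and of 0.386 and 11.01 CPM in miR-210 KO. Pecam1, of endothelial cells, had a mean of 1.41 and 7.39 CPM in WT and of 2.59 and 7.85 CPM in miR-210 KO, and both genes were called higher in M2 in each genotype by edgeR. The other 5 stromal markers stayed at or under 1.59 CPM in every library, and Col1a2 had a mean of 0.496 CPM in WT M0 and 0.153 CPM in WT M2, and of 1.09 and 0.354 CPM in miR-210 KO. S100a8, of neutrophils, was called higher in WT M2 (mean 3.18 CPM, against 0.799 CPM in WT M0) and was not called in miR-210 KO, where the means were 1.60 CPM in M0 and 1.38 CPM in M2. Cd79b, of B cells, had group means between 6.02 and 7.72 CPM and was not called in any comparison. The part of these markers in the differences between M0 and M2 was not tested. The summed level of the 6 red cell markers was 3.69, 1.45 and 0.507 CPM in WT M0 and 0.236, 4.64 and 0.867 CPM in WT M2, and between 0.105 and 0.613 CPM in the miR-210 KO libraries, where the haemoglobin genes were at 0. Their part in the differences between genotypes was not tested. Retnla, a gene that IL-4 induces in macrophages, was at 0 in all M0 libraries and between 270.6 and 479.9 CPM in the M2 libraries. The libraries numbered 2 of both M0 groups stood apart from the others of their group. WT M0 library 2 had the lowest level of its group for 29 of the 37 members, and miR-210 KO M0 library 2 for 30 of them. Results that rest on M0 are therefore also given without both. That choice followed the members' own values, so calls made without these libraries are not independent support.

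Mature miR-210-3p is shown because it is the molecule the knockout removes. It is printed 5′ to 3′ as RefSeq gives it for GRCm38.p6 (chromosome 7, 141221407 to 141221428, minus strand), with the seed, bases 2 to 8, in capitals.
mmu-miR-210-3p: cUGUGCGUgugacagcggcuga

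The complement of the seed, ACGCACA, was searched in the 3′ untranslated regions of the canonical GENCODE transcripts (GRCm39), on the transcript strand. It was found in 3 of the 37 members and in 3.52% of 20635 genes with such a region. The sites in Gsr, Slc7a11 and Sod2 are shown with the match in capitals and 11 bases on each side. The Gsr site lies on chromosome 8 (34187448 to 34187476, plus strand), the Slc7a11 site on chromosome 3 (50324528 to 50324556, minus strand) and the Sod2 site on chromosome 17 (13238443 to 13238471, plus strand), the last at the start of a run of CA repeats.
Gsr: cagctatacacACGCACAgaagaacttat
Slc7a11: aacactgcctgACGCACAtgcttgtcatc
Sod2: tatatataattACGCACAcacacacacaa
A match of these 7 letters is a description and not evidence of binding.

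The core of the antioxidant response element, TGACNNNGC, was searched on both strands of the promoters that RefSeq gives for GRCm38.p6, 250 bases before to 50 after the start of a gene. Of the 34 members with a promoter entry, 9 held the core (26.5%), beside 14% of 27025 genes with an entry and 18 of 93 other genes of the pathway (19.4%). The members were Nfe2l2, Srxn1, Gclm, Prdx1, Pgd, Mgst1, Txnrd1, Sod1 and G6pdx. Gsr, Gclc and Prdx6 had no entry, so their promoters were not searched. Windows around the core are shown for the members Txnrd1, Gclm and Prdx1, in the direction of the gene, with the core in capitals. Here the core lies on the opposite strand, so its reverse complement is seen. The Txnrd1 core begins 92 bases before the start in its promoter entry (window on chromosome 10, 82859088 to 82859148, plus strand). That of Gclm begins 134 bases before (chromosome 3, 122245397 to 122245457, plus strand) and that of Prdx1 133 bases before (chromosome 4, 116685440 to 116685500, plus strand). These starts were not compared with the gene coordinates given below, which are of GRCm39.
Txnrd1: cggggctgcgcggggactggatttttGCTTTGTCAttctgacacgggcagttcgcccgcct
Gclm: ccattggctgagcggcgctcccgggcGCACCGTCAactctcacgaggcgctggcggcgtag
Prdx1: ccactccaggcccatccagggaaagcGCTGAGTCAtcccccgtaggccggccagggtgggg

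**Figure D1:**
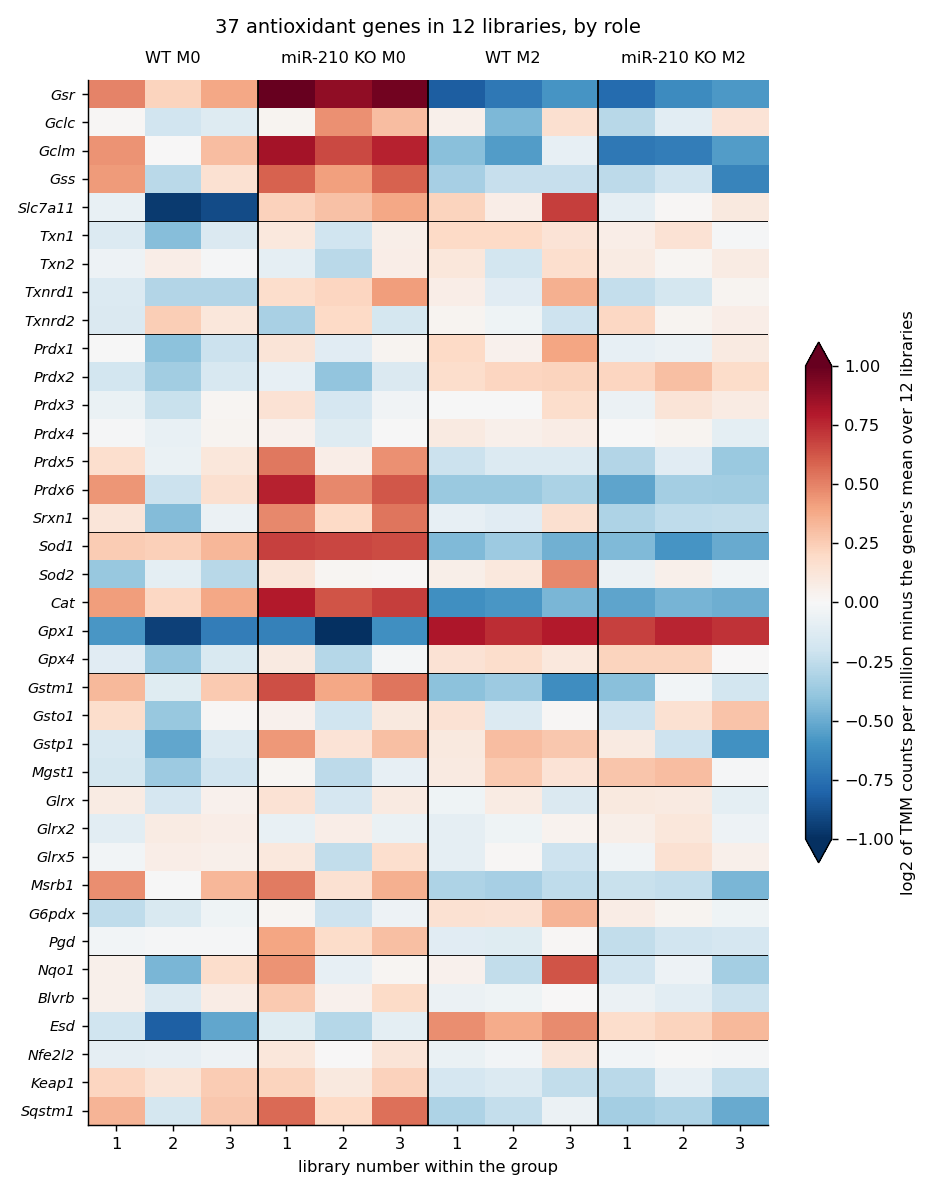
Each row is a gene and each column a library, grouped by genotype and state, and the colour is the log2 of the TMM-normalized CPM minus the gene's mean over the 12 libraries. Gsr, Gclm, Cat and Sod1 are darkest red in the miR-210 KO M0 libraries and blue in the M2 libraries, Gpx1 is blue in the 6 M0 libraries and red in the 6 M2 libraries, and the M0 libraries numbered 2 are paler or bluer than their neighbours for most genes.

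Levels between genes were compared as CPM per kilobase of the canonical transcript. In WT M0 the members ranged from 2.98 CPM per kilobase for Nqo1, a quinone reductase, to 296 ± 36.0 (SD, n = 3) for Gpx1, the main cytosolic glutathione peroxidase. Next to Gpx1 stood Prdx1, an abundant cytosolic peroxiredoxin, at 289 ± 40.3 and Sqstm1 at 257 ± 46.9 CPM per kilobase (SD, n = 3), and these neighbours did not differ beyond their spread. Nfe2l2 itself was at 138 ± 2.23 CPM per kilobase (SD, n = 3). In WT M2 the level of Gpx1 was 844 ± 20.5 CPM per kilobase (SD, n = 3), above that of every other member. Some levels are uncertain because the transcript shares sequence with other genes. Of the 50-base stretches of Gpx4 69% occur in transcripts of other genes, as do 56.3% of Gstp1, all of them in Gstp2, 21.6% of Gstm1 and 15.2% of Prdx1. None of the stretches of Gsr, Txnrd1, Cat or Gpx1 does. In such bulk samples fewer cells of a type and less RNA per cell cannot be told apart.

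In M0, the log2 fold change of miR-210 KO over WT was above 0 for 30 of the 37 members, with a median of 0.22, beside a median of 0.0005 and 50.1% above 0 over the 14089 genes tested. Gsr and Txnrd1, the reductases of glutathione and thioredoxin, passed the test, which is 2 of 37 members (5.41%) beside 0.461% of all genes. The call required a fold change over 1.2 in either direction and a Benjamini-Hochberg (BH) adjusted p under 0.05 over all genes tested in edgeR's quasi-likelihood test, and 0.22% of all genes were called higher and 0.241% lower. For 14 members all 3 miR-210 KO libraries were above all 3 WT libraries, and for 0 members below, beside 7.1% and 7.27% of all genes. An unadjusted p under 0.05 in edgeR was found for 16 members, beside 10% of all genes. The DESeq2 Wald test with BH adjustment called 7 members, all higher in miR-210 KO, beside 1.55% of all genes. These were Cat, Gclm, Gsr, Pgd, Prdx6, Srxn1 and Txnrd1. The median ranged from 0.14 (without WT M0 library 2) to 0.29 (without miR-210 KO M0 library 2) when single libraries were left out. The sign of 11 members, none of them over 0.10 in size, changed under at least 1 alternative.

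Gsr (chromosome 8, 34142551 to 34188192, plus strand) uses NADPH to return oxidised glutathione to its reduced form. Its level was 99.7, 82.5 and 92.6 CPM in WT M0 and 155, 131 and 138 CPM in miR-210 KO M0. The lowest KO library was well above the highest WT library. KO exceeded WT by a log2 fold change of 0.62 ± 0.10 (SE, n = 3 against 3), with an adjusted p of 0.0181 in the quasi-likelihood test of edgeR (BH adjusted).

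Txnrd1 (chromosome 10, 82669785 to 82733546, plus strand) encodes the cytosolic thioredoxin reductase, a selenoprotein. It stood at 177, 158 and 159 CPM in WT M0 and at 220, 225 and 260 CPM in miR-210 KO M0, again without overlap. This gave a log2 fold change of 0.51 ± 0.09 (SE, n = 3 against 3), with an adjusted p of 0.0375 in edgeR's test with BH adjustment. Both calls depended on the libraries used, while the log2 fold changes without single libraries stayed between 0.56 and 0.69 for Gsr and between 0.43 and 0.57 for Txnrd1. Without WT M0 library 1 or 3, or miR-210 KO M0 library 1 or 3, neither gene was called by edgeR with BH adjustment (adjusted p of 0.0502 to 0.127 for Gsr and 0.0556 to 0.257 for Txnrd1), and in these fits 20 to 32 genes in all were called, against 65 with all 6 libraries. With both M0 libraries numbered 2 left out, 8 members were called by edgeR, beside 2.91% of all genes. All were higher in miR-210 KO, with Gsr and Txnrd1 among them. These libraries were chosen for omission by the members' own values.

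The other genes of glutathione reduction and synthesis were not called in M0 by edgeR in the fit of the 2 groups. All 5 genes of this group had an unadjusted p under 0.05 in that test. The DESeq2 Wald test called Gclm, and the edgeR fit of all 12 libraries called Gclm and Slc7a11, each higher in miR-210 KO. Of all genes these called 1.55% and 1.67%. Slc7a11 (chromosome 3, 49846975 to 50398070, minus strand), the cystine importer that feeds glutathione synthesis, was at 132.8, 72 and 75.2 CPM in WT M0 and at 164, 171 and 182 CPM in miR-210 KO M0. Library 1 of WT M0 was far above the other WT libraries but below all KO libraries. The log2 fold change was 0.89 ± 0.19 (SE), with an adjusted p of 0.0764 in edgeR's test with BH adjustment. It was 1.23 and called (edgeR, BH adjusted p = 0.000462) without that WT library, and without any other single library it lay between 0.75 and 0.93 and was not called (edgeR, BH adjusted p of 0.0504 to 0.347). The modifier and the catalytic subunit of glutamate-cysteine ligase, which makes the first bond of glutathione, had log2 fold changes of 0.49 ± 0.11 (Gclm) and 0.38 ± 0.12 (Gclc), and their KO libraries did not overlap with WT. The log2 fold change of Gss, glutathione synthetase, was 0.41 ± 0.16, and its libraries overlapped. Summed over the 5 genes, the level was 468 ± 81.6 CPM in WT M0 and 707 ± 27.7 CPM in miR-210 KO M0 (SD, n = 3).

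Outside the reductase, the thioredoxin system gave log2 fold changes between -0.16 for Txnrd2, the mitochondrial reductase, and 0.22 for Txn1, the cytosolic thioredoxin, with overlapping libraries. Among peroxiredoxins, which reduce peroxides with electrons from thioredoxin or glutathione, Prdx6 had a log2 fold change of 0.48 ± 0.14 and Prdx1 of 0.22 ± 0.11 (SE), while those of Prdx2, Prdx3 and Prdx4 lay between -0.01 and 0.07. Srxn1, sulfiredoxin, which repairs overoxidised peroxiredoxins, had a log2 fold change of 0.52 ± 0.13 (SE). The KO libraries of Srxn1 and Prdx6 lay above all WT libraries, and those of Prdx1 overlapped.

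Catalase (Cat, chromosome 2, 103284194 to 103316185, minus strand), which breaks down hydrogen peroxide in peroxisomes, was at 304, 262.5 and 296 CPM in WT M0 and at 394, 352 and 366 CPM in miR-210 KO M0. Sod1 (chromosome 16, 90017408 to 90027657, plus strand), the cytosolic superoxide dismutase, was at 21.0, 20.8 and 22.1 CPM in WT M0 and at 28.3, 28.0 and 27.7 CPM in miR-210 KO M0. The groups did not overlap for either gene. The log2 fold changes were 0.37 ± 0.09 for Cat and 0.39 ± 0.09 for Sod1 (SE), with adjusted p of 0.11 and 0.115 in edgeR's test with BH adjustment. The edgeR fit of all 12 libraries called both genes and Srxn1, each higher in miR-210 KO, beside 1.67% of all genes. Gpx1 (chromosome 9, 108216102 to 108217546, plus strand) was at 351, 275.5 and 326.5 CPM in WT M0 and at 330, 260.5 and 344 CPM in miR-210 KO M0, fully overlapping. Esd (chromosome 14, 74969722 to 74989991, plus strand) encodes an enzyme that releases glutathione from its formyl adduct, S-formylglutathione. It was at 102, 66.4 and 81.8 CPM in WT M0 and at 108, 95.8 and 109 CPM in miR-210 KO M0, with library 1 of WT above library 2 of KO.

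No member of the remaining groups was called in M0 by edgeR in the fit of the 2 groups. The DESeq2 Wald test and the edgeR fit of all 12 libraries each called Pgd, higher in miR-210 KO. The 4 glutaredoxin and methionine sulfoxide reductase genes (Glrx, Glrx2, Glrx5 and Msrb1) had log2 fold changes between -0.04 and 0.08. The glutathione transferase Gstp1 had a log2 fold change of 0.55 ± 0.16 and Gstm1 of 0.36 ± 0.12 (SE), without overlap of libraries. Pgd, which makes NADPH in the pentose phosphate pathway, had a log2 fold change of 0.31 ± 0.08 (SE), also without overlap, and G6pdx, the enzyme before it, of 0.07 ± 0.09. Nfe2l2 differed by 0.16 ± 0.08, Keap1 by -0.01 ± 0.08 and Sqstm1 by 0.29 ± 0.14 on the log2 scale (SE).

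Cell cycle markers were measured in the same contrast. All 10 cell cycle markers had a log2 fold change above 0 in miR-210 KO M0 (median 0.60), with 0 called by edgeR, and their summed level was 406, 461 and 391 CPM in WT M0 and 612, 537 and 509 CPM in miR-210 KO M0. The most abundant of them was Pcna, and the largest difference was in Ccna2 (log2 fold change 1.14 ± 0.26 SE, edgeR BH adjusted p = 0.0949). Of the 8 macrophage markers 0 were called in M0 by edgeR, and 4 had a log2 fold change above 0. Fcgr1, an Fc receptor, was at 582, 394.8 and 521 CPM in WT M0 and at 339, 315 and 351 CPM in miR-210 KO M0, without overlap, with a log2 fold change of -0.58 ± 0.12 (SE, edgeR BH adjusted p = 0.0828). Itgam went the other way, at 238, 313 and 285 CPM in WT M0 and at 371, 333 and 332 CPM in miR-210 KO M0, without overlap. Its log2 fold change was 0.31 ± 0.10 (SE, edgeR BH adjusted p = 0.302). Fcgr1 and Itgam were chosen after their values were seen. The part of these genes in the antioxidant differences was not tested.

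**Figure D2:**
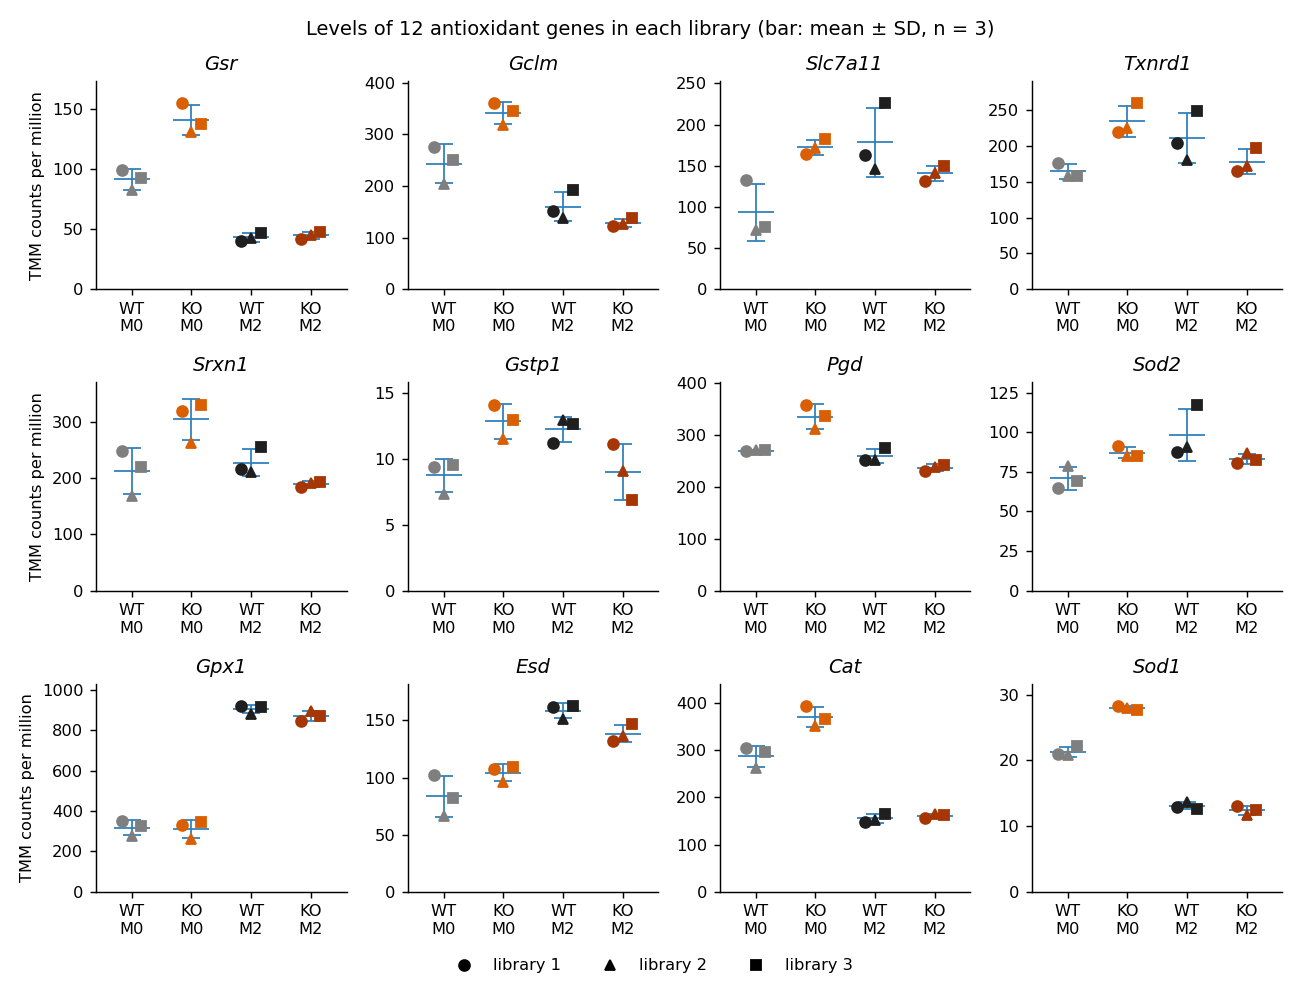
Each panel plots the TMM-normalized CPM of a gene in every library, with symbols for the library number and bars for the mean ± SD of 3 libraries, for the 7 genes described in full and for Gclm, Srxn1, Gstp1, Pgd and Sod2. The miR-210 KO M0 points of Gsr, Gclm, Txnrd1, Srxn1, Gstp1, Cat and Sod1 sit above all WT M0 points, while in M2 the genotypes lie close together or the KO points lie lower.

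In M2, after IL-4, the 2 reductases and the other members were not called between the genotypes. Of the 37 members 14 had a log2 fold change above 0 between miR-210 KO and WT and 23 below, with a median of -0.05, beside a median of 0.002 and 50.6% above 0 over the 13980 genes tested. None of the members was called by the quasi-likelihood test of edgeR (BH adjusted), and the DESeq2 Wald test called 0 as well, beside 0.98% of all genes by edgeR (0.572% lower). An unadjusted p under 0.05 in edgeR was found for 12 members, beside 10.7% of all genes. For 8 members all KO libraries lay below all WT libraries and for 1 member, Txnrd2, above, beside 8.1% and 7.94% of all genes.

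Gsr was at 40.0, 43.0 and 47.0 CPM in WT M2 and at 41.5, 45.6 and 47.3 CPM in miR-210 KO M2, and the libraries overlapped. Its log2 fold change was 0.06 ± 0.08 (SE), with an adjusted p of 0.883 in edgeR's test with BH adjustment. Txnrd1 was at 203.5, 179.8 and 249 CPM in WT M2 and at 164, 172 and 198 CPM in miR-210 KO M2. Libraries 1 and 2 of KO were below all WT libraries and library 3 was within their range, and the log2 fold change was -0.23 ± 0.10 (SE, edgeR BH adjusted p = 0.377). Slc7a11 was at 163, 146.5 and 226 CPM in WT M2 and at 132, 141 and 149.8 CPM in miR-210 KO M2, and the highest KO library was just above the lowest WT library. For Slc7a11 the log2 fold change was -0.33 ± 0.12 (SE), with an adjusted p of 0.259 in edgeR's test with BH adjustment. Without WT M2 library 2, edgeR called Slc7a11, Gclm and Prdx1, all lower in miR-210 KO M2, beside 1.06% of all genes. Without WT M2 library 3 the log2 fold change was -0.13 for Slc7a11 (edgeR BH adjusted p = 0.763) and -0.10 for Txnrd1 (edgeR BH adjusted p = 0.865).

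Members whose KO libraries lay below all WT libraries in M2 were Srxn1 (log2 fold change -0.26 ± 0.07 SE), Gstp1 (-0.43 ± 0.16), Sod2 (-0.23 ± 0.09), G6pdx (-0.19 ± 0.06), Pgd (-0.13 ± 0.06), Esd (-0.19 ± 0.06), Prdx4 (-0.09 ± 0.07) and Sqstm1 (-0.18 ± 0.07). Sod2 is the mitochondrial superoxide dismutase. Gstm1, with a log2 fold change of 0.27 ± 0.10 (SE), had the highest value of all members in M2. Cat was at 148, 152 and 166 CPM in WT M2 and at 157, 165 and 162 CPM in miR-210 KO M2, and its libraries overlapped. Sod1 was at 13.0, 13.7 and 12.6 CPM in WT M2 and at 13.0, 11.7 and 12.4 CPM in miR-210 KO M2, likewise overlapping.

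**Figure D3:**
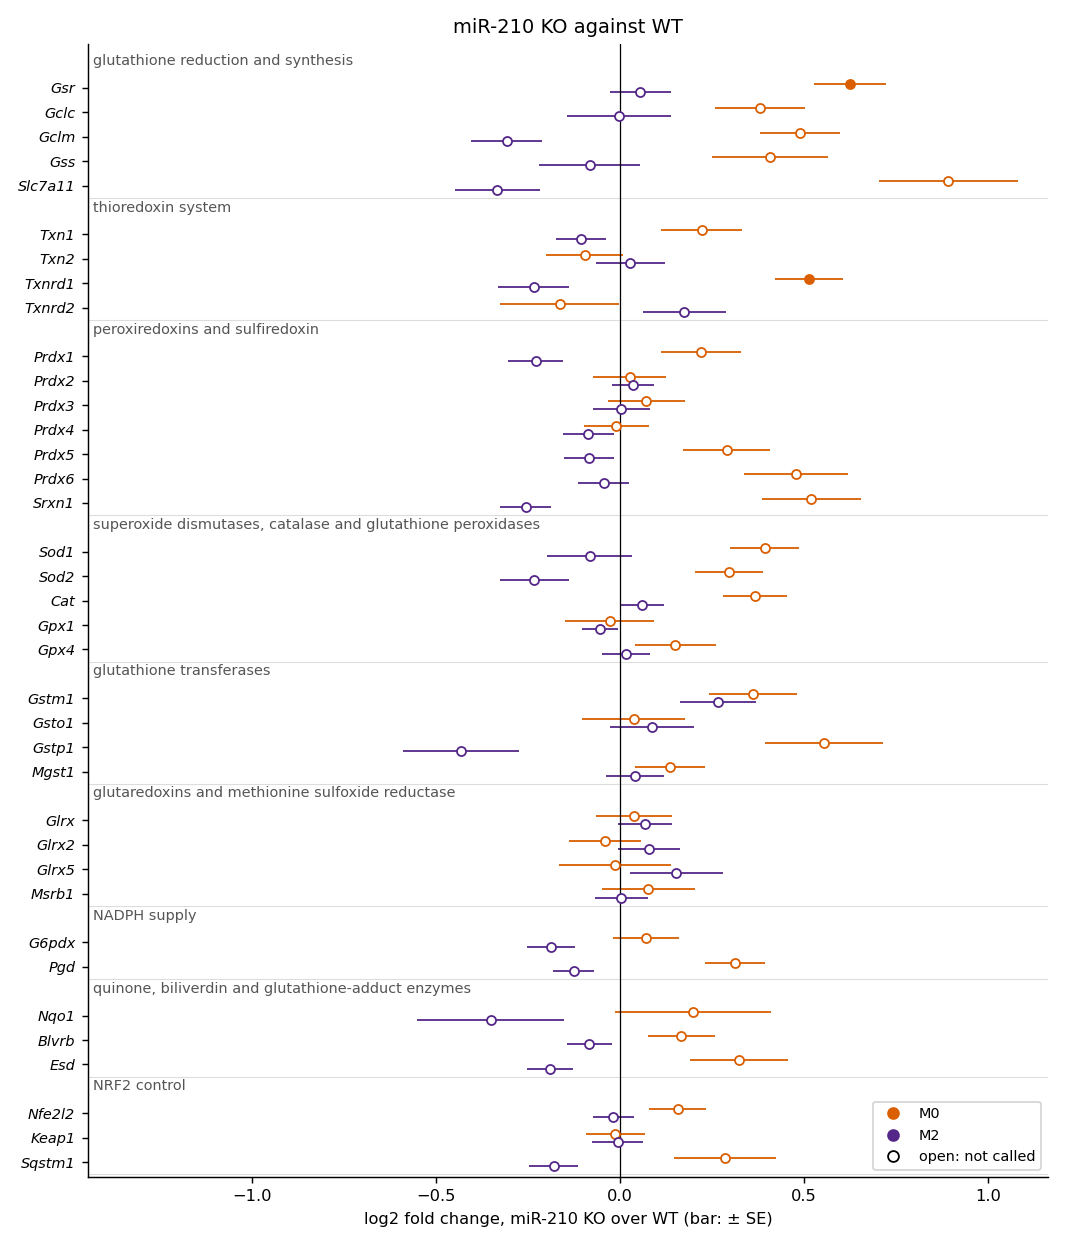
The log2 fold change of miR-210 KO over WT is plotted for the 37 genes by role, in M0 (orange) and in M2 (purple), with bars for ± SE and filled points for called genes. Only Gsr and Txnrd1 in M0 are filled, most M0 points lie to the right of 0, and Slc7a11, Gclm, Txnrd1, Srxn1 and Gstp1 lie to the right in M0 and to the left in M2.

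With IL-4, members were called in both directions in WT macrophages, as were genes at large. Of the 37 members 12 rose and 9 fell between WT M0 and WT M2, and 16 were not called, beside 22.1% and 20.9% of all genes (43% in all) called higher and lower by edgeR among the 14266 tested. The log2 fold change was above 0 for 20 members, beside 49.9% of all genes, with a median of 0.04 beside -0.0012. That median ranged from -0.02 to 0.11 when single libraries were left out, and was below 0 without WT M0 library 2 or WT M2 library 1 or 3. The M2 libraries lay above all M0 libraries for 13 members and below for 9, beside 28.7% and 28.2% of all genes, and 23 members had an unadjusted p under 0.05, beside 53.8%. All 5 genes of the superoxide dismutase, catalase and glutathione peroxidase group were called, 3 higher and 2 lower. Because WT M0 also serves in the comparison of genotypes in M0, the values of both comparisons share those libraries. The same holds for miR-210 KO M0 in the comparison of M2 with M0 in miR-210 KO. Of the 10 cell cycle markers edgeR called 6 in WT, all higher in M2, and 7 in miR-210 KO, 5 of them higher. Of the 8 macrophage markers it called 5 in each genotype, 1 of them higher in WT and 0 in miR-210 KO. Fcgr1 had the lowest log2 fold change of these, -2.97 in WT and -2.59 in miR-210 KO. Of all genes 43% and 33.8% were called. The part of these markers in the differences of the members was not tested.

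Gpx1 had the largest increase of the members. Its M0 levels of 275.5 to 351 CPM stood against 921, 880.2 and 914 CPM in WT M2, with a log2 fold change of 1.52 ± 0.08 (SE, edgeR BH adjusted p = 5.76e-09). In miR-210 KO it went from 260.5 to 344 CPM in M0 to 844, 893 and 868.5 CPM in M2, a log2 fold change of 1.48 ± 0.10 (SE, edgeR BH adjusted p = 1.28e-07). Slc7a11 rose in WT by 0.95 ± 0.20 (SE) on the log2 scale (edgeR BH adjusted p = 0.00162), and all WT M2 libraries were above all WT M0 libraries. Esd rose to 162, 151 and 163 CPM in WT M2, by 0.94 ± 0.12 (SE) on the log2 scale, and to 132, 136 and 147 CPM in miR-210 KO M2, by 0.41 ± 0.08. The M2 libraries of Esd lay above the M0 libraries in each genotype.

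Gsr had the largest decrease. It fell by 1.07 on the log2 scale in WT (SE 0.09, edgeR BH adjusted p = 2.82e-07) and by 1.65 in miR-210 KO (SE 0.09, edgeR BH adjusted p = 2.41e-08), to levels of 40.0 to 47.3 CPM in both genotypes. Cat fell by 0.88 in WT and by 1.2 in miR-210 KO, and Sod1 by 0.69 and by 1.18 (log2 scale, each called by edgeR). The M2 libraries of these genes lay below the M0 libraries in each genotype. Gclm fell by 0.60 in WT and by 1.41 in miR-210 KO, Prdx6 by 0.49 and by 1.03, Gstm1 by 0.61 and by 0.72 and Msrb1, a selenoprotein that repairs oxidised methionine, by 0.56 and by 0.65. Keap1 fell by 0.38 in each genotype, and Sqstm1 by 0.35 in WT and by 0.83 in miR-210 KO. The values of Nfe2l2, 0.09 ± 0.07 in WT and -0.09 ± 0.07 in miR-210 KO (log2 fold change, SE), were not called. The Sqstm1 call in WT was lost without WT M0 library 1 or 3 or WT M2 library 1 or 2.

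Further members that rose in WT M2 belonged to the thioredoxin system, the peroxiredoxins, the dismutases and peroxidases, the glutathione transferases and the NADPH enzymes. They were Txn1 by 0.41, Txnrd1 by 0.36, Prdx1 by 0.43, Prdx2 by 0.44, Sod2 by 0.48, Gpx4, which reduces lipid peroxides, by 0.36, Mgst1 by 0.41, Gstp1 by 0.50 and G6pdx by 0.37 on the log2 scale. Without WT M2 library 3 the log2 fold change of Txnrd1 was 0.23, under the fold limit. The call of Gstp1 in WT was lost without WT M2 library 2 (edgeR BH adjusted p = 0.0503).

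In miR-210 KO macrophages edgeR called 4 members higher and 17 lower in M2 than in M0. Of all 14331 genes tested, 17.4% were called higher and 16.4% lower (33.8% in all). The log2 fold change was above 0 for 15 members, beside 49.2%, with a median of -0.29 beside -0.0078. That median ranged from -0.30 to -0.16 when single libraries were left out. The M2 libraries lay above all M0 libraries for 3 members and below for 18, beside 23.6% and 22.7% of all genes, and 22 members had an unadjusted p under 0.05, beside 43.5%. The 4 that rose were Gpx1, Esd, Prdx2 and Mgst1, and the Mgst1 call was lost without miR-210 KO M0 library 2 or 3 or miR-210 KO M2 library 1 or 2. All 5 genes of glutathione reduction and synthesis had a log2 fold change below 0, and 4 of them fell, Gss by 0.88 among them. Srxn1 fell by 0.68, Prdx5 by 0.62, Pgd by 0.50 and Blvrb, which reduces biliverdin and flavins, by 0.29 on the log2 scale. The Blvrb call was lost without miR-210 KO M0 library 1 or M2 library 3. Txnrd1, which rose in WT, fell by 0.40 in miR-210 KO (SE 0.09, edgeR BH adjusted p = 0.00506), and its libraries did not overlap between M0 and M2. Slc7a11 fell by 0.29 (SE 0.08, edgeR BH adjusted p = 0.0125) and Gstp1 by 0.50 (SE 0.18, edgeR BH adjusted p = 0.044), and both calls were lost when single libraries were left out. For Slc7a11 these were miR-210 KO M0 library 3 and M2 library 1, and for Gstp1 M0 library 1 or 3 and M2 library 2 or 3. The call of Slc7a11 was also lost in the edgeR fit of all 12 libraries (BH adjusted p = 0.222), and that of Gstp1 with DESeq2 (BH adjusted p = 0.0611). With both M0 libraries numbered 2 left out, edgeR called 23 members in WT and 20 in miR-210 KO, beside 42.7% and 34.2% of all genes.

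**Figure D4:**
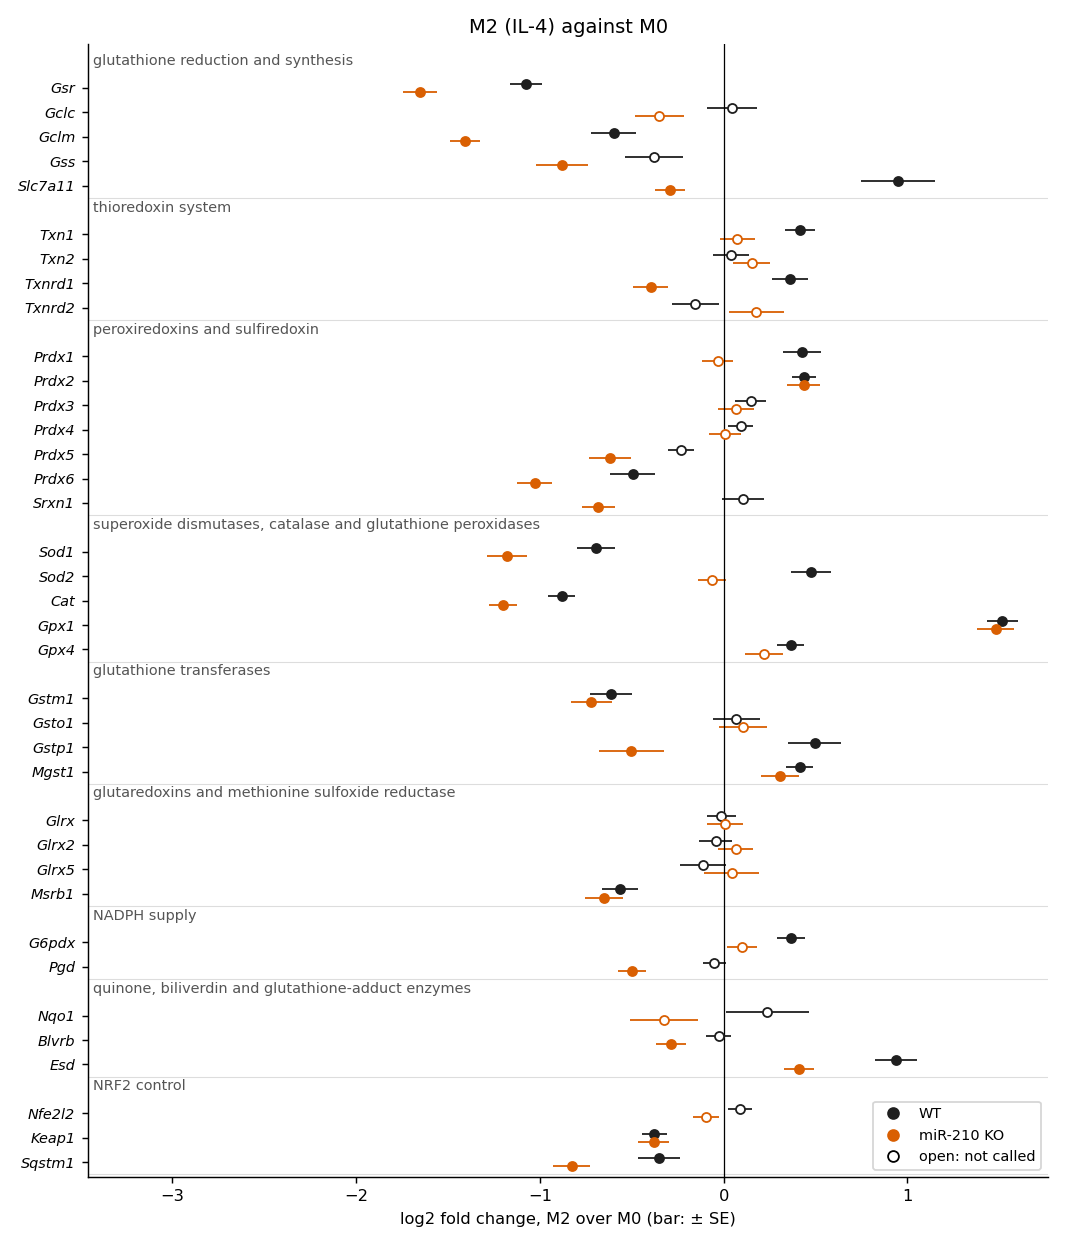
The log2 fold change of M2 over M0 is plotted for the 37 genes by role, in WT (black) and in miR-210 KO (orange), with bars for ± SE and filled points for called genes. Gpx1 lies near 1.5 in both genotypes, Gsr lies furthest to the left in both, and Slc7a11, Txnrd1 and Gstp1 are filled on the right in WT and on the left in miR-210 KO.

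Whether the effect of IL-4 differed between the genotypes was tested as an interaction over all 12 libraries. Of the 14825 genes tested, 0 (0%) reached an adjusted p under 0.05 in the quasi-likelihood test of edgeR (BH adjusted), so no member was called. At an unadjusted p under 0.05 edgeR had 19 of the 37 members (51.4%), beside 8.95% of all genes. The DESeq2 Wald test called 6 members with BH adjustment, Gsr, Gclm, Txnrd1, Srxn1, Gstp1 and Pgd, beside 0.621% of all genes. The interaction is the M2 against M0 difference in miR-210 KO minus that in WT. It is also the miR-210 KO against WT difference in M2 minus that in M0. Because it rests on the libraries of those comparisons, it is not a finding apart from them. The interaction was above 0 for 8 members and below for 29, beside 49.7% of all genes above 0. Its median was -0.31, beside -0.0016 for all genes. With both M0 libraries numbered 2 left out, edgeR with BH adjustment called 7 members, beside 1.15% of all genes: Gclm, Gsr, Pgd, Slc7a11, Sod2, Srxn1 and Txnrd1. That omission followed the members' own values, so these calls are not independent support.

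The largest interactions on the log2 scale were those of Slc7a11 (-1.23 ± 0.26 SE), Gstp1 (-0.99 ± 0.23), Gclm (-0.80 ± 0.16), Srxn1 (-0.78 ± 0.17) and Txnrd1 (-0.75 ± 0.15). Their adjusted p in edgeR with BH adjustment were 0.114, 0.137, 0.107, 0.116 and 0.0951. The interaction of Gsr was -0.58 ± 0.13 (SE, edgeR BH adjusted p = 0.121). At the other end, Gpx1 had an interaction of -0.03 ± 0.14, Prdx2 of 0.00 ± 0.11 and Keap1 of 0.00 ± 0.10 on the log2 scale. By role, all 5 genes of glutathione reduction and synthesis were below 0, all 5 of the superoxide dismutase, catalase and glutathione peroxidase group, and 6 of 7 peroxiredoxin and sulfiredoxin genes. Of the 4 glutaredoxin and methionine sulfoxide reductase genes 1 was below 0. All 10 cell cycle markers were also below 0 in the interaction, with a median of -0.49 and a range of -0.90 to -0.25, with 0 called by edgeR, and their part in the interaction of the members was not tested.

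Of 111 further genes of the same pathways, 95 were tested between the genotypes in each state. In M0 68 of the 95 had a log2 fold change above 0 (median 0.08), and 0 were called by edgeR with BH adjustment, beside 0.461% of all genes, with 11 at an unadjusted p under 0.05, beside 10%. In M2 48 were above 0, and Chac1 and Slc1a5 were called, both lower in miR-210 KO, beside 0.572% of all genes called lower. Chac1, which degrades glutathione, was at 12.4, 13.3 and 19.2 CPM in WT M2 and at 8.94, 5.44 and 8.89 CPM in miR-210 KO M2. Every KO library was lower than every WT library, and the log2 fold change was -0.95 ± 0.20 (SE, edgeR BH adjusted p = 0.0291). Slc1a5, a glutamine transporter, was at 77.7, 87.7 and 102 CPM in WT M2 and at 70.6, 61.0 and 64.9 CPM in miR-210 KO M2, with a log2 fold change of -0.44 ± 0.09 (SE, edgeR BH adjusted p = 0.0273) and no overlap. Neither gene was called in M0.

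Between WT M0 and WT M2, 96 of the 111 were tested, and 21 rose and 20 fell, beside 22.1% and 20.9% of all genes, so that these shares were near those of all genes. The largest increases were in Nxn, nucleoredoxin, a thioredoxin-like protein (log2 fold change 4.78 ± 0.18 SE), Chac1 (3.18 ± 0.25) and Slc1a5 (2.81 ± 0.12). The largest decreases were in the glutathione transferases Gstm5 (-2.38 ± 0.20) and Gsta3 (-1.84 ± 0.34) and in Selenop, the secreted selenium carrier (-1.25 ± 0.09). In miR-210 KO the log2 fold changes of these genes were 4.84 (Nxn), 1.73 (Chac1), 2.38 (Slc1a5), -2.23 (Gstm5), -3.48 (Gsta3) and -0.91 (Selenop), all called. Over the 96 genes tested in miR-210 KO, 17 rose and 31 fell, beside 17.4% and 16.4% of all genes. The level of Selenop lay between 3496 and 4236 CPM in WT M0 and between 1514 and 1721 CPM in WT M2, without overlap.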

How the data were processed

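Per the labels and the study's methods, the authors trimmed reads with Trimmomatic, removed duplicates with Picard, aligned to GRCm39 with STAR and counted reads per gene with featureCounts; duplicate removal can lower the counts of abundant or short genes. The authors deposited raw counts, which were used, and normalized tables of each comparison (4 files), which were not used. Library numbers come from the columns of the count tables and are not tied to single samples. Of 56941 genes 56323 matched the annotation. Counts were tested in R 4.3.3 with edgeR 4.0.16 (TMM, filterByExpr, quasi-likelihood test), with the 2 groups of each comparison or, for the interaction, all 12 libraries, and p-values were adjusted over all genes tested. SE is the log2 fold change divided by the root of F. DESeq2 1.42.0, other scalings, filters and fold limits, a replicate block and leaving out libraries were alternatives, and leaving out both M0 libraries numbered 2 was chosen after seeing the data. The tests were checked on simulated data. The members and lists were chosen with earlier results of these data known. Genes given in full were those the rule for named genes gave, and the others are given by role. Some marker genes are not reported here.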

Additional observations from a re-analysis of the deposited data

Results flagged for a closer look

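For 4 members the miR-210 KO libraries lay above all WT libraries in M0 and below all of them in M2, beside 77 of 13436 genes tested in both states (0.573%). The log2 fold changes of KO over WT in M0 and M2 were 0.55 and -0.43 for Gstp1, 0.31 and -0.13 for Pgd, 0.30 and -0.23 for Sod2 and 0.52 and -0.26 for Srxn1. The difference was tested as the interaction in edgeR (quasi-likelihood, BH adjusted), and it was -0.99 for Gstp1 (adjusted p = 0.137), -0.44 for Pgd (0.116), -0.54 for Sod2 (0.19) and -0.78 for Srxn1 (0.116), none under the threshold. DESeq2 called Gstp1, Pgd and Srxn1.

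For 3 members the M2 libraries lay above all M0 libraries in WT and below all of them in miR-210 KO, beside 17 of 14012 genes tested in both genotypes (0.121%). The log2 fold changes of M2 over M0 in WT and KO were 0.50 and -0.50 for Gstp1, 0.95 and -0.29 for Slc7a11 and 0.36 and -0.40 for Txnrd1. The interactions were -0.99, -1.23 and -0.75, with adjusted p of 0.137, 0.114 and 0.0951 in edgeR with BH adjustment, and DESeq2 called Gstp1 and Txnrd1. Both sets rest on the same 12 libraries.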

How the results depend on the processing

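The count of members called by edgeR between the genotypes in M0 was 2 (0.461% of all genes called) and moved to 10 with no filter on low counts (2.03%), 7 with DESeq2 (1.55%), 8 in a fit of all 12 libraries (1.67%), 8 without both M0 libraries numbered 2 (2.91%) and 1 with a fold limit of 1.5 (0.362%), and to between 0 and 2 when single libraries were left out (0.139% to 2.1%). In M2 it was 0 (0.98%) and moved to 2 with no filter (1.38%), and to between 0 and 3 without single libraries (0.373% to 1.51%). For M2 over M0 it was 21 in each genotype and moved to 8 (WT, beside 25% of all genes) and 12 (KO, 21.1%) with a fold limit of 1.5, and to 19 to 23 (38.9% to 42.7%) and 18 to 21 (27.5% to 34.2%) without single libraries. For the interaction it was 0 (0%) and moved to 12 with no filter (1.19%), 6 with DESeq2 (0.621%), 7 without both M0 libraries numbered 2 (1.15%), and 0 to 5 without single libraries (5 without miR-210 KO M0 library 2, 0.511%). The median of the members in miR-210 KO M2 over M0 ranged from -0.30 to -0.16 without single libraries. Signs changed under some alternative for 11 members in M0 (Glrx, Glrx2, Glrx5, Gpx1, Gsto1, Keap1, Msrb1, Prdx2, Prdx3, Prdx4 and Txn2), 11 in M2, 7 in each genotype for M2 over M0 and 8 for the interaction. Of the genes given in full, Gpx1 ranged from -0.111 to 0.0894 (M0, KO over WT) and from -0.151 to 0.0499 (interaction) without single libraries. With the library number as a replicate block 10 members were called in M0 (2.02% of all genes), 2 in M2 (2.07%; Gclm and Slc7a11, lower in KO), 21 and 22 for M2 over M0 (41.7% and 31.2%) and 0 for the interaction (0%). Deviations of same-numbered libraries correlated at 0.12, 0.37 and 0.02 in M0 and at -0.10, 0.09 and 0.08 in M2, so the numbers were not taken to pair the libraries, and not every library correlated best with its own number. The causes of these changes were not tested. With 3 libraries a group, the precision of all values is limited. Nqo1 and Gstp1 had the lowest total counts of the members over the 12 libraries (912 and 1170), and so the largest relative counting error.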

Other observations

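Over the 4 groups, the mean level was highest in miR-210 KO M0 for 17 of the 37 members, in WT M2 for 10, in miR-210 KO M2 for 9 and in WT M0 for 1. It was lowest in WT M0 for 15 members, in miR-210 KO M2 for 12, in WT M2 for 6 and in miR-210 KO M0 for 4. The 37 genes together took 0.609%, 0.515% and 0.584% of the counts in WT M0 and 0.724%, 0.631% and 0.695% in miR-210 KO M0. They took 0.611%, 0.597% and 0.663% in WT M2 and 0.562%, 0.587% and 0.573% in miR-210 KO M2.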
